A study of Mus musculus with 4 samples.

Results

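Ifng, Tnf, Csf2 and Fasl, the genes of 4 effector molecules of T cells, were followed through single cells of MC38 tumours in 4 treatment arms. They were taken by symbol, and all 4 were among the 13518 genes of the deposited table. MC38 is a mouse colon carcinoma line, here implanted orthotopically in C57BL/6 mice. The arms were the combination (Atractylenolide I, ATT-I, at 50 mg/kg daily, with anti-PD-1), anti-PD-1 alone (3 times a week, 5 doses in total), ATT-I alone at 50 mg/kg daily, and vehicle. The treatment protocol calls the last arm a vehicle control, while that sample's own entry says it was not treated. The tumours of an arm, 5 of them, were pooled 2 weeks after the first dose, and the pool made 1 droplet library (10x Genomics). The arms therefore have no replicates, a difference between arms is a difference between libraries, and no p-value is given for it. All 95% intervals are exact and cover counting error only.

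Interferon-gamma (Ifng) is the main cytokine by which T cells activate macrophages and raise antigen presentation on tumour cells. Tumour necrosis factor (Tnf) is an inflammatory cytokine that can also kill cells through its receptor, GM-CSF (Csf2) feeds the growth and activation of myeloid cells, and Fas ligand (Fasl) kills cells that bear Fas. In T cells the mRNAs of the first 3 are made in short bursts after the T cell receptor is triggered and are quickly destroyed by proteins that bind AU-rich stretches of the 3′ untranslated region (UTR).

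Those stretches are shown because they mark how the 4 messages differ in sequence. The lines below give, 5′ to 3′ on the mRNA's strand, the 30 bases of each 3′ UTR with the most copies of ATTTA, the core of an AU-rich element, in capitals (GENCODE vM21 gene models, build GRCm38, which is mm10).
Ifng: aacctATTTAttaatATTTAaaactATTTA
Tnf: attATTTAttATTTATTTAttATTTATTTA
Csf2: tttaaatATTTATTTATTTATTTATTTAtt
Fasl: gctgtttttctttaatacaactagtATTTA
They lie at chr10:118445330-118445359 (plus strand), chr17:35199679-35199708 (minus), chr11:54247327-54247356 (minus) and chr1:161780775-161780804 (minus). The whole 3′ UTR held 6 copies in Ifng (631 bases), 8 in Tnf (764 bases), 9 in Csf2 (317 bases) and 1 in Fasl (887 bases), overlapping copies included. Of UTRs of like length, 1.21% held as many copies as Ifng, 0.341% as many as Tnf, 0.0548% as many as Csf2 and 68.4% as many as Fasl. The longer element TTATTTATT was found 5 times in Tnf and 4 times in Csf2, and neither in Ifng nor in Fasl; 7.01% of all 20314 UTRs held one. Only the mRNA's own strand was searched.

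The promoters of the members with a TATA box near the start are shown as well, in 300 bases that end 50 bases after the start (RefSeq, GRCm38.p6). Capitals mark GGAAA, the core that NFAT factors bind, or its reverse complement TTTCC, and the TATA box TATAAA.
Ifng promoter: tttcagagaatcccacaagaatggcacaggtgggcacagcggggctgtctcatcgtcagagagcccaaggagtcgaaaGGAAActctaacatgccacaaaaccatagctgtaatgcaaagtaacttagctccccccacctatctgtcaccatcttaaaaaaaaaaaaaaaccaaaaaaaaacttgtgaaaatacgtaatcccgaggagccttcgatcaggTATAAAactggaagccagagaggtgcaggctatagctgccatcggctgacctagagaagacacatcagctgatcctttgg
Tnf promoter: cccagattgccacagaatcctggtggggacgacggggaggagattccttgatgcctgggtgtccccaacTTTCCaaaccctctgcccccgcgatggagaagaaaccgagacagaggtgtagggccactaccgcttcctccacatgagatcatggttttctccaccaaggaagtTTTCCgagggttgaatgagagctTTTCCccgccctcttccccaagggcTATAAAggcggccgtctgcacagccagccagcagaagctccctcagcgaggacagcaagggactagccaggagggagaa
Ifng lies on the plus strand (chr10:118440796-118441095) and Tnf on the minus strand (chr17:35201958-35202257). TATAAA began 30 bases before the start of Ifng and 29 before that of Tnf, and 13.6% of 32851 promoters held it on either strand. The core GGAAA occurred 1 time in Ifng, 3 times in Tnf and 2 times in Fasl on either strand, and 61.3% of promoters held it. The AP-1 motif TGANTCA, held by 7.81% of promoters, was in none of the windows of Ifng, Tnf and Fasl. For Csf2 the RefSeq and GENCODE starts differ by 232 bases, so its promoter is not shown and not read for any of these motifs.

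The table held 199 combination, 12562 anti-PD-1, 297 ATT-I and 155 vehicle cells. The median cell had 23927, 7148, 6828 and 16129 unique molecular identifiers (UMIs, each a counted mRNA molecule) in that order, and 1 cell barcode was found in 2 libraries. The labels describe tumours, but most of the cells were T cells: 93.5% to 100% of a library's cells had a UMI of Cd3e, Cd3d or Cd3g, and the 6 epithelial markers summed to between 0.0669 and 1.53 UMIs per 10000. A level below is the sum of a gene's UMIs per 10000 UMIs of the cells named. The CD8 gate asks for at least 2 UMIs of Cd8a and Cd8b1, more than of Cd4, and no Foxp3; the CD4 gate for a majority of Cd4 and no Foxp3; and the Foxp3 gate, which marks regulatory T cells, for a Foxp3 UMI without a CD8 majority. CD8-gated cells made up 59.3% of combination cells, 66.0% of anti-PD-1 cells, 36.0% of ATT-I cells and 31.0% of vehicle cells. The CD4 gate held 39, 947, 90 and 55 cells, and the Foxp3 gate 29, 869, 27 and 23. Over all libraries Ifng had 35683 UMIs in 53.7% of cells, Fasl 7853 in 39.1%, Csf2 4047 in 5.93% and Tnf 3157 in 14.1%.

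Ifng was highest in anti-PD-1 in both the CD8 and the CD4 gate, and almost absent from Foxp3-gated cells outside anti-PD-1. In CD8-gated cells its level was 2.10 in the combination (95% interval 1.95 to 2.25), 3.32 in anti-PD-1 (3.28 to 3.36), 1.90 in ATT-I (1.67 to 2.15) and 1.92 in vehicle (1.69 to 2.18). The intervals of the combination, ATT-I and vehicle overlapped, and that of anti-PD-1 lay above them. In CD4-gated cells the level was 3.08 in the combination, 5.32 in anti-PD-1 and 1.08 in ATT-I, against 0.984 in vehicle. The first pair stood above the second pair, and ATT-I and vehicle overlapped. Foxp3-gated cells had 0.0404, 0.605, 0.0363 and 0.0555 in the same order of libraries. Outside anti-PD-1 these levels rest on 3, 1 and 3 UMIs.

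**Figure D1:**
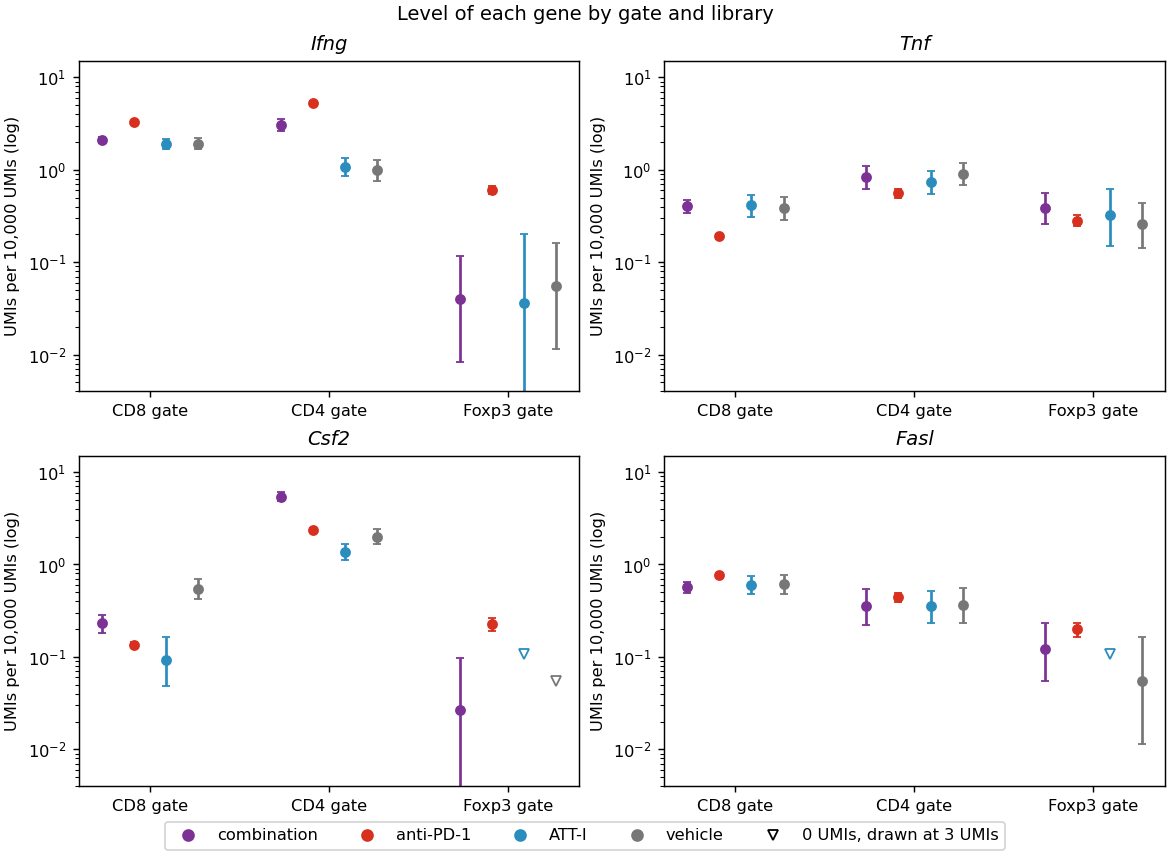
Level of each gene (summed UMIs per 10000 UMIs, log axis, with exact 95% counting intervals) in the CD8, CD4 and Foxp3 gates, for the combination, anti-PD-1, ATT-I and vehicle libraries; open triangles mark 0 UMIs, drawn at 3 UMIs. Csf2 stands highest in the CD4 gate in all 4 libraries, and Ifng is lowest in the Foxp3 gate.

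Relative to CD8-gated cells, CD4-gated cells had a higher summed level of Ifng in both libraries with anti-PD-1 and a lower one in both without it. The log2 ratio of the CD4 over the CD8 gate was 0.55 in the combination (0.32 to 0.78), 0.68 in anti-PD-1 (0.63 to 0.73), -0.82 in ATT-I (-1.20 to -0.44) and -0.97 in vehicle (-1.40 to -0.55). In the combination 1 cell held 76 of the 190 Ifng UMIs of the CD4 gate, 40% of them, and without the top cell of each gate the ratio was 0.06. Over the 4 libraries the mean was -0.14 ± 0.87 (SD, n = 4; exact two-sided sign-flip test over libraries, p = 0.75). The smallest p this test can give with 4 libraries is 0.13. Shares of cells did not follow the summed levels. Thinned to 4000 UMIs, 39.5%, 38.6%, 23.0% and 25% of CD4-gated cells had Ifng in the combination, anti-PD-1, ATT-I and vehicle. In the CD8 gate the shares were 39.3%, 47.7%, 17.5% and 27.7%. Only in anti-PD-1 were the intervals of the gates apart, with the CD4 gate lower. There 29 of 947 CD4-gated cells held 66.8% of the gate's Ifng. The Foxp3 gate was lower than the CD8 gate in 4 of 4 libraries, by a mean log2 of -4.74 ± 1.55 (SD, n = 4; exact p = 0.13, adjusted over 12 gate tests 0.167).

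Tnf was low throughout, and in every library it was higher in the CD4 than in the CD8 gate. Its level in CD4-gated cells was 0.826 in the combination, 0.554 in anti-PD-1 and 0.737 in ATT-I, against 0.901 in vehicle. In CD8-gated cells it was 0.403, 0.190, 0.412 and 0.388 in the same order. The CD8 gate of anti-PD-1 was the lowest of these, with an interval of 0.181 to 0.200 that did not reach the other 3. For thinned shares of CD8-gated cells with Tnf, the interval of anti-PD-1 was 5.70% to 6.79%. It overlapped those of the combination (6.70 to 19.3), ATT-I (3.63 to 15.6) and vehicle (6.20 to 28.3). The mean log2 ratio of CD4 over CD8 was 1.16 ± 0.30 (SD, n = 4, higher in 4 of 4 libraries; exact sign-flip p = 0.13, the smallest possible, adjusted 0.167). In Foxp3-gated cells Tnf had levels between 0.259 in vehicle and 0.391 in the combination. These were lower than in CD4-gated cells in 4 of 4 libraries, and 1 library, anti-PD-1, had more in the Foxp3 than in the CD8 gate.

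Csf2 was carried by CD4-gated cells. Its level there was 5.41 in the combination (4.84 to 6.02), 2.37 in anti-PD-1 (2.25 to 2.49), 1.37 in ATT-I (1.11 to 1.66) and 2.0 in vehicle (1.66 to 2.39). In the combination 1 cell held 97 of these 334 UMIs, and in vehicle 1 held 54 of 120, which the intervals do not cover. The thinned shares of CD4-gated cells with Csf2 were 31.6% (17.5 to 48.7), 13.6% (11.2 to 16.2), 10.8% (4.78 to 20.2) and 15.4% (6.88 to 28.1). Only the share intervals of the combination and anti-PD-1 do not overlap. In CD8-gated cells the levels were 0.230, 0.135, 0.0933 and 0.549. The CD4 gate of the combination, 19.6% of its cells, held 79.5% of its Csf2 UMIs; that of anti-PD-1, 7.54% of cells, held 47.8%. In ATT-I 30.3% of cells held 70.9%, and in vehicle 35.5% of cells held 61.9%. The log2 ratio of CD4 over CD8 ran from 1.87 in vehicle to 4.55 in the combination, with a mean of 3.61 ± 1.19 (SD, n = 4, higher in 4 of 4; exact sign-flip p = 0.13, adjusted 0.167). Foxp3-gated cells had no Csf2 UMI in ATT-I (0 of 27 cells, exact upper limit 12.8%) and in vehicle (0 of 23, upper limit 14.8%). These limits are on the share of cells with a UMI at this depth, not on the share of cells that express the gene.

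Fasl had the opposite leaning to Csf2, and the most even one. CD4-gated cells had 0.356 in the combination, 0.443 in anti-PD-1 and 0.355 in ATT-I, against 0.367 in vehicle. In CD8-gated cells the levels were 0.570, 0.773, 0.607 and 0.614 in the same order. The log2 ratio of CD4 over CD8 lay between -0.80 and -0.68 in the 4 libraries, with a mean of -0.75 ± 0.054 (SD, n = 4, lower in 4 of 4; exact sign-flip p = 0.13, adjusted 0.167). Foxp3-gated cells had less still, with 0.121, 0.198, 0 and 0.0555. Of the ungated vehicle cells, 17 of 29 had a Fasl UMI. NK cell markers (7 genes) summed to 37.6 in those 29 cells, of which 10 had no Cd3 UMI, against 3.06 in the CD8 gate of vehicle. With Cd3-bearing cells alone the log2 ratio of Ifng over all cells of anti-PD-1 against vehicle, given below as 1.60, was 1.40; the part of NK cells in the other levels was not tested.

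Within a library the 4 messages were spread very differently over cells. In anti-PD-1, 50% of all Csf2 UMIs lay in 22 of 12562 cells, 50% of Tnf in 365, 50% of Ifng in 502 and 50% of Fasl in 1494. The top 5% of cells held 97.5% of Csf2, 61.2% of Tnf, 53.7% of Ifng and 26.4% of Fasl. In the 3 smaller libraries the top 5% held 87.2% to 92.4% of Csf2, 41.5% to 58.9% of Ifng, 36.1% to 42.9% of Tnf and 24.8% to 33.8% of Fasl. Csf2 was the most concentrated and Fasl the least in all 4. The highest single cell had 1247 UMIs of Ifng, but 12 of Fasl. The order of the genes' concentration also depends on how many UMIs each has, and this was not adjusted for.

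**Figure D2:**
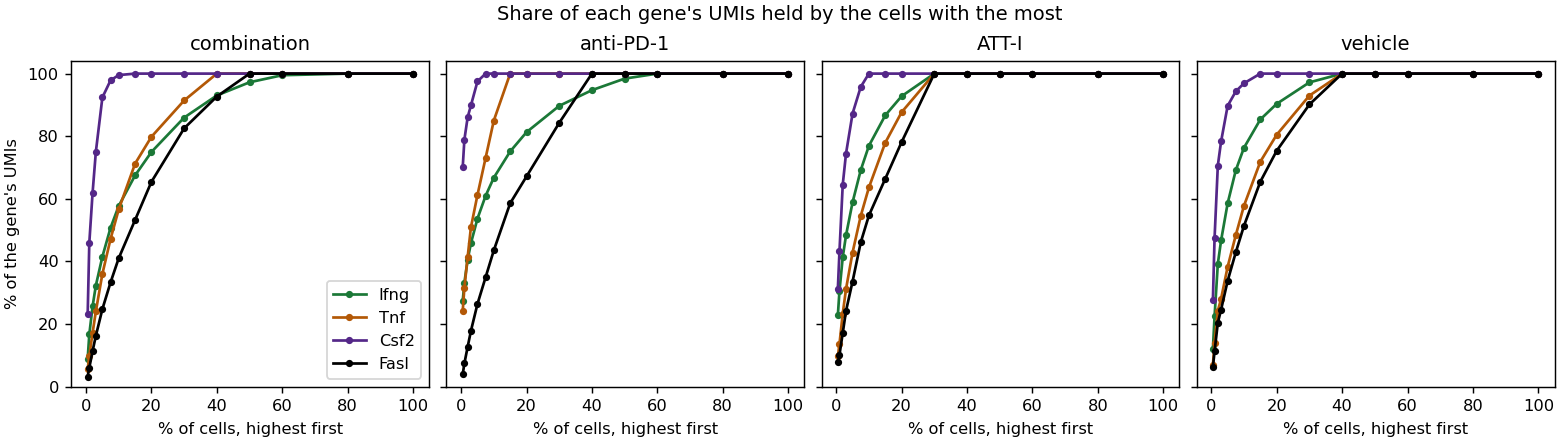
Cumulative share of each gene's UMIs (vertical axis, percent) held by the cells with the most of it (horizontal axis, percent of the library's cells, highest first), 1 panel a library. The Csf2 curve climbs first in all 4 panels (97.5% in the top 5% of anti-PD-1 cells), and the Fasl curve is the flattest over the top 5%.

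Levels were then compared between libraries, with a ratio of 2 or more counted as a difference. All 4 members passed the filter of a UMI in 2% of cells of either library in each of the 9 comparisons, which need 50 cells in both. Vehicle had 48 CD8-gated cells and the combination 39 CD4-gated cells, so these enter no comparison within a gate. Comparisons with the same library share its cells and are not independent.

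The combination had more Csf2 and more Tnf than anti-PD-1 alone, and less Ifng and Fasl. Over all cells Csf2 was 0.803 in the combination against 0.303 in anti-PD-1, a log2 ratio of 1.41 (1.26 to 1.55), and this was the 1 member of 4 past 2-fold; of 11234 genes, 10.2% were as much higher and 5.59% as much lower. In the combination 3 of 199 cells held 50% of the Csf2 UMIs, and without the top cell of each library the ratio was 1.16. The CD4 gate, where Csf2 was highest, made up 19.6% of combination cells against 7.54% of anti-PD-1 cells. Its part in the Csf2 ratio was not tested. The log2 ratios of the other members were 0.87 for Tnf, -0.75 for Ifng and -0.52 for Fasl, each with an interval that excludes 0. An Mki67 UMI, a sign of cycling, was found in 74.9% of combination cells against 32.3% of anti-PD-1 cells, and its part in these ratios was not tested. In cells without Mki67 the ratios were 2.84 for Csf2, 1.62 for Tnf, -0.07 for Ifng and -1.52 for Fasl. In cells with Mki67 they were 1.24, 0.91, -0.87 and -0.18 in the same order. In CD8-gated cells Tnf was 0.403 in the combination against 0.190 in anti-PD-1, a log2 ratio of 1.08 (0.83 to 1.33), and again 1 member of 4 was past 2-fold; there 11.4% of 10948 genes were higher and 7.44% lower. Less the median of all genes, 0.09, the Tnf ratio falls just short of 2-fold. Ifng in CD8-gated cells was lower in the combination by a log2 ratio of -0.66 (-0.77 to -0.56), and Fasl by -0.44 (-0.65 to -0.24).

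Against ATT-I alone, the combination had no member 2-fold apart over all cells, where 7.9% of 11360 genes were higher and 8.59% lower. Ifng was 1.86 in the combination against 1.25 in ATT-I (log2 ratio 0.58, 0.40 to 0.75) and Csf2 0.803 against 0.490 (0.71, 0.434 to 0.998). For Tnf (-0.26) and Fasl (0.08) the intervals include 0. In CD8-gated cells Csf2 was 2.47-fold higher in the combination (log2 ratio 1.30, 0.42 to 2.31), where 8.67% of 11142 genes were higher and 8.8% lower, but this compares 84 UMIs with 12. Of the 84, 76 came from the 11 combination cells without Mki67, and among CD8-gated cells with an Mki67 UMI the ratio was -1.19. Ifng in CD8-gated cells differed by a log2 ratio of 0.14 (-0.07 to 0.36) and is not separated at this depth.

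Anti-PD-1 had 3.02-fold the Ifng of vehicle over all cells, 3.13 against 1.04 (log2 ratio 1.60, 1.44 to 1.76), and Csf2 was lower at 0.303 against 0.626 (-1.05, -1.26 to -0.83). So 1 member was past 2-fold higher and 1 lower, where 3.23% of 10917 genes were higher and 14.9% lower. The Csf2 call ends without the cell with the most UMIs in each library, with a log2 ratio of -0.71. The median of all genes was -0.25 in this comparison, and subtracting it also ends the Csf2 call. Tnf was lower (-0.76, -1.02 to -0.50) and Fasl higher (0.56, 0.32 to 0.81), both under 2-fold. CD8-gated cells made up 66.0% of anti-PD-1 and 31.0% of vehicle cells, and the part of this in the all-cell ratios was not tested. Within the CD8 gate Ifng was 3.32 in anti-PD-1 against 1.92 in the 48 vehicle cells. In CD4-gated cells Ifng was 5.41-fold higher in anti-PD-1, 5.32 against 0.984 (log2 ratio 2.44, 2.06 to 2.83), and was the 1 member of 4 past 2-fold, where 6.22% of 10345 genes were higher and 19.2% lower. Of the anti-PD-1 UMIs behind this ratio 29 of 947 cells held 66.8%, and the thinned shares of cells with Ifng, 38.6% (35.1 to 42.2) against 25% (14.03 to 38.9), overlap. Csf2 was 2.37 in anti-PD-1 against 2.0 in vehicle there, with an interval that includes 0 on the log2 scale (-0.03 to 0.52).

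Neither ATT-I nor the combination had a member 2-fold apart from vehicle over all cells. For ATT-I the log2 ratios were 0.27 for Ifng, 0.37 for Tnf, -0.35 for Csf2 and -0.04 for Fasl, where 4.68% of 11075 genes were higher and 10.4% lower. In CD4-gated cells ATT-I differed from vehicle by 0.13 for Ifng (-0.37 to 0.64), -0.29 for Tnf, -0.55 for Csf2 (-0.95 to -0.16) and -0.05 for Fasl; no member was past 2-fold, against 6.34% of 10747 genes higher and 16.3% lower. Without the top cell of each library the Csf2 ratio was -0.05. In this gate the summed level of 6 epithelial markers was 5.37 with ATT-I and 0.183 in vehicle, and that of 5 fibroblast markers 0.464 and 0; their part in these ratios was not tested. For the combination over all cells Ifng was 0.85 higher on the log2 scale (0.66 to 1.03) and Csf2 0.36 higher, while the intervals of Tnf and Fasl include 0; 3.67% of 11448 genes were higher and 8.85% lower. The share of CD8-gated cells moves with these all-cell values, at 59.3% in the combination and 31.0% in vehicle; its part in them was not tested, and fewer cells of a type and less mRNA per cell cannot be told apart in a sum over all cells.

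**Figure D3:**
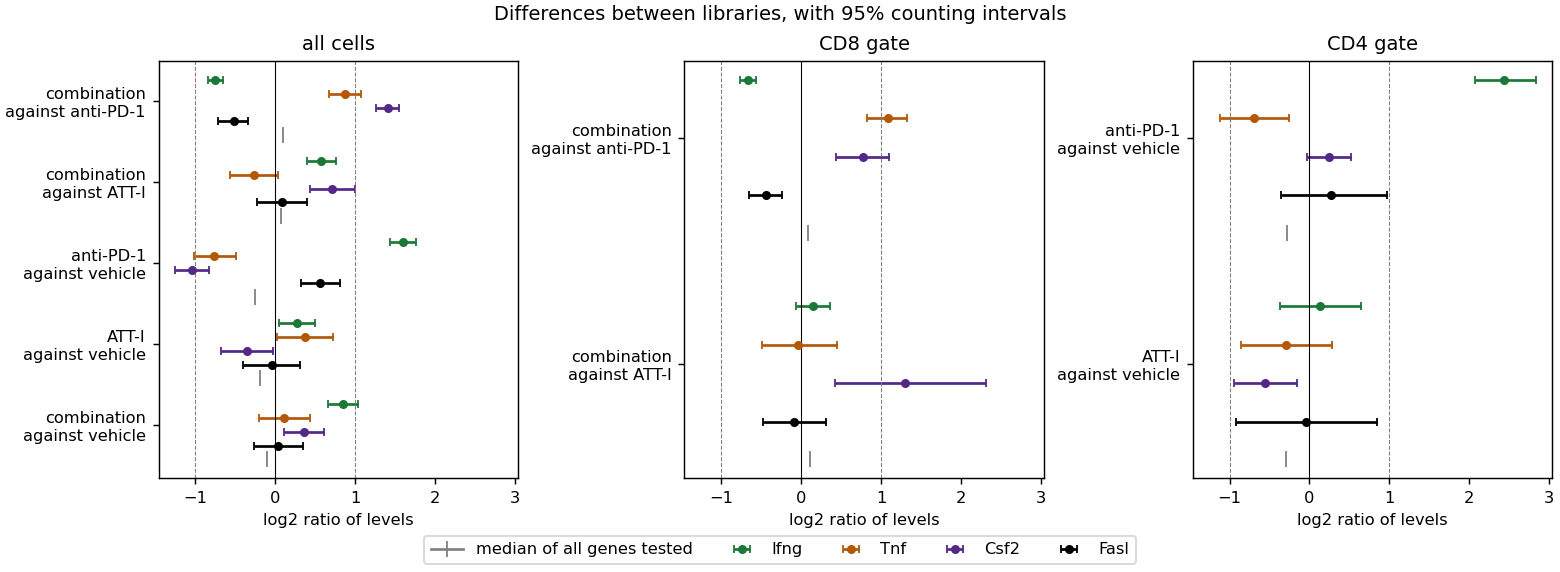
Log2 ratio of levels (horizontal axis) of each gene in the 9 comparisons between libraries, with exact 95% counting intervals; grey ticks are the median of all genes tested and dashed lines mark 2-fold. Ifng in CD4-gated cells of anti-PD-1 against vehicle lies farthest from 0, at 2.44.

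Shares of cells with a UMI were taken at the depth of each cell and at an equal depth. A UMI of Ifng was found in 78.8% of CD8-gated cells of the combination, 63.9% of those of anti-PD-1, 37.4% of those of ATT-I and 58.3% of those of vehicle. Once each cell was thinned to 4000 UMIs, the shares were 39.3% (30.4 to 48.8), 47.7% (46.6 to 48.8), 17.5% (10.6 to 26.6) and 27.7% (15.6 to 42.6). The combination was highest without thinning; after thinning the intervals of the combination and anti-PD-1 overlap, and no order is read between them. Over all draws the expected Ifng shares were 40.6%, 47.7%, 22.0% and 32.3%, so the draw was low for ATT-I and vehicle. Thinning left out 1, 620, 10 and 1 shallower CD8-gated cells. For comparison, 14.5% of thinned Foxp3-gated cells of anti-PD-1 had an Ifng UMI, at a median depth of 6020 UMIs against 7812.5 in its CD8 gate. Thinned Fasl shares were 27.4%, 27.7%, 21.6% and 17.02% in CD8-gated cells, and 9.27% in the Foxp3 gate of anti-PD-1. These come from 1 draw. The CD8 shares expected over all draws were 20.6%, 28.1%, 22.4% and 22.2%, so no order of libraries is read from the draw. For Tnf and Csf2 the thinned CD8 shares of anti-PD-1, 6.23% and 2.61%, were not above those of its Foxp3 gate, 9.41% and 2.90%, so they are not read as shares of CD8 cells that express either gene.

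**Figure D4:**
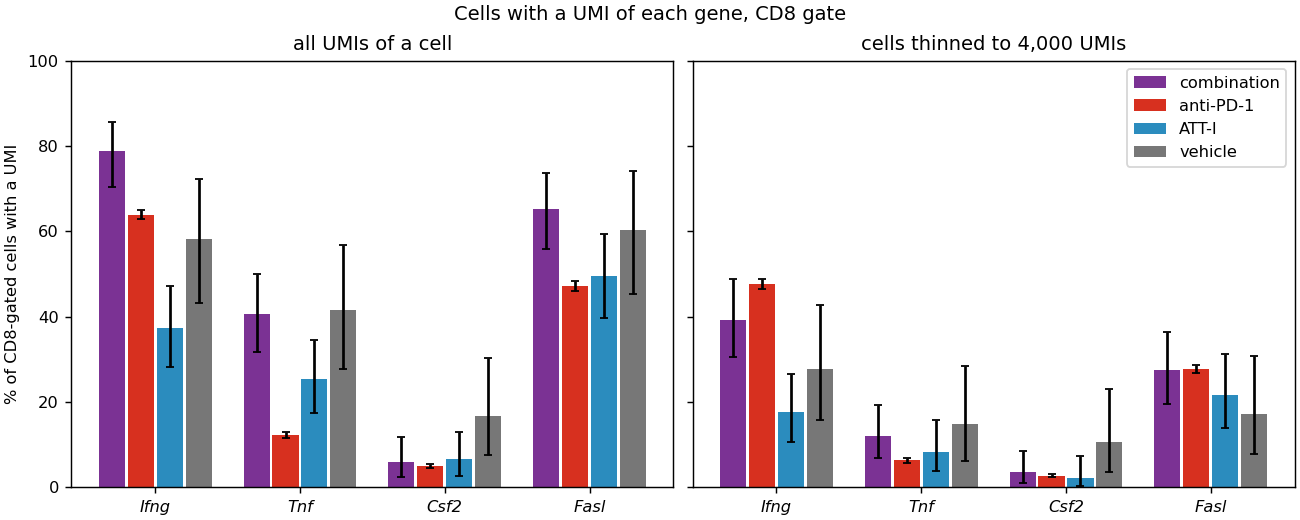
Percent of CD8-gated cells with at least 1 UMI of each gene (vertical axis), with all UMIs of a cell (left) and after thinning every cell to 4000 UMIs (right), for the 4 libraries; bars carry exact 95% binomial intervals. For Ifng the combination is above anti-PD-1 on the left (78.8% against 63.9%). On the right the values are 39.3% and 47.7%, with intervals that overlap, and no order is read.

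Joint detection was read in thinned cells, as the number of cells with both genes over the number that the 2 separate shares would give. In CD4-gated cells of anti-PD-1 this ratio was above 1 for all 6 pairs: 1.85 for Tnf with Csf2, 1.55 for Tnf with Fasl, 1.49 for Ifng with Tnf, 1.35 for Ifng with Csf2, 1.27 for Csf2 with Fasl and 1.22 for Ifng with Fasl. They rest on 26, 24, 60, 52, 19 and 52 cells with both genes, in that order, and the ratios carry no interval. In CD8-gated cells of anti-PD-1 it was 1.69 for Tnf with Csf2, which rests on 21 cells, and between 0.885 and 1.13 for the other 5 pairs. The most frequent pair in CD8-gated cells was Ifng with Fasl, found in 14.1% of 7676 cells, and in the CD4 gate Ifng with Tnf, in 8.13% of 738. The smaller libraries had at most 9 cells with any pair in these gates, and no order of pairs is read there.

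At least 2 of the 4 genes were seen in 13.7% of thinned CD8-gated cells of the combination (8.02 to 21.3), 18.2% of anti-PD-1 (17.3 to 19.04), 8.25% of ATT-I (3.63 to 15.6) and 14.9% of vehicle (6.20 to 28.3). In CD4-gated cells the shares were 31.6% (17.5 to 48.7), 19.9% (17.1 to 23.0), 21.6% (12.9 to 32.7) and 19.2% (9.63 to 32.5). The intervals of the 4 libraries overlap in the CD4 gate. In the CD8 gate those of anti-PD-1 and ATT-I do not at 4000 UMIs, but at 2500 UMIs they do, with 10.7% (10.03 to 11.4) against 10.4% (5.30 to 17.8). Each depth is 1 draw. The ATT-I share was higher at the lower depth, in 106 cells against 97, so no order of these libraries is read. All 4 genes together were seen in 5 of 7676 thinned CD8-gated and 6 of 738 thinned CD4-gated cells of anti-PD-1, and in none elsewhere. No other library had more than 117 thinned cells in either gate, so no order is read from this. With all UMIs, at unequal depths, the CD8 counts were 0 of 118, 23 of 8296, 2 of 107 and 2 of 48, libraries ordered as before. The CD4 counts were 5 of 39, 21 of 947, 0 of 90 and 2 of 55. Without thinning, the CD8 shares with at least 2 were 71.2%, 40.7%, 37.4% and 58.3%.

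Cells with very many Ifng UMIs carried the other early cytokines too. In the CD8 gate of anti-PD-1, 135 cells (1.63%) had 20 or more Ifng UMIs and held 31.7% of the gate's Ifng. In these cells Csf2 was 1.04 against 0.117 in CD8-gated cells without Ifng, Tnf 0.934 against 0.157, and Il2, the T cell growth factor, 2.79 against 0.0796. The chemokine genes Ccl3 and Ccl4 were 23.2 against 1.99 and 51.4 against 6.12. Perforin (Prf1) was 10.9 against 2.33, and Fasl 0.679 against 0.745. Between these ends, Ccl3, Ccl4 and Prf1 were higher in each higher range of Ifng, whereas Tnf, Csf2 and Il2 stayed within 0.0235 and 0.247 up to 19 Ifng UMIs and were high only in the last range. These levels are sums over the cells of a range, and how many of the 135 cells had each gene was not counted. In the whole CD8 gate of anti-PD-1, 1 cell held 121 of the 1038 Csf2 UMIs. Median depth also differed, at 13486 UMIs against 6628. Doublets were not removed, and their part in these cells was not tested.

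**Figure D5:**
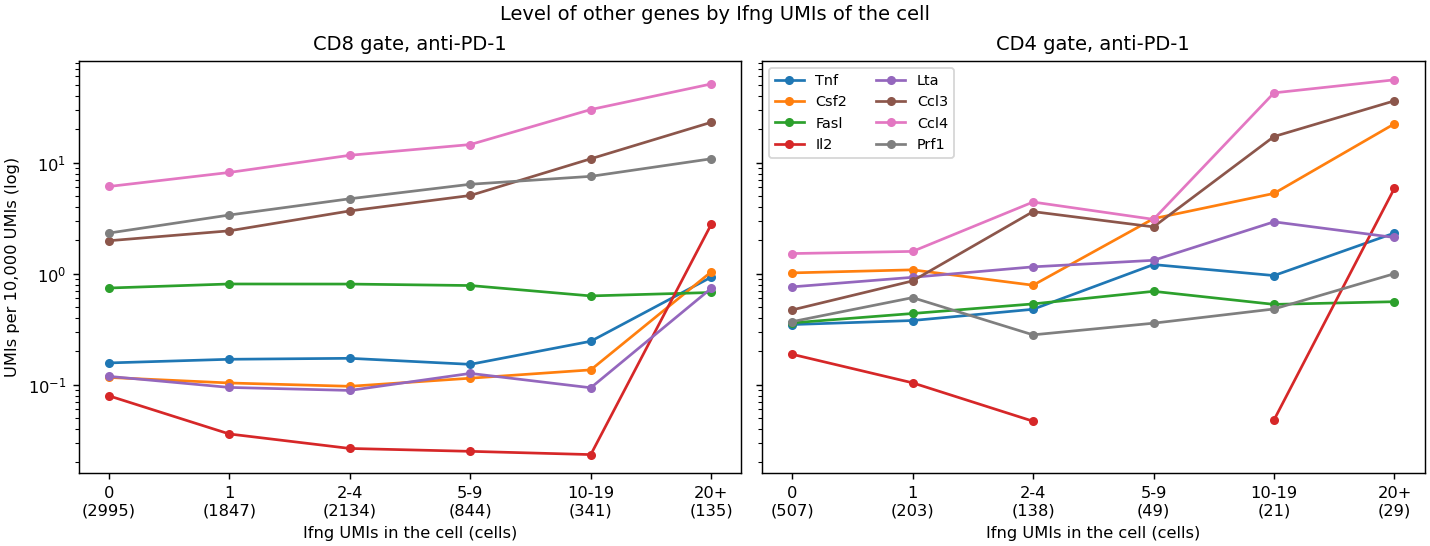
Level of 8 genes (UMIs per 10000 UMIs, log axis) in CD8-gated (left) and CD4-gated (right) cells of anti-PD-1, by the number of Ifng UMIs of the cell, with the number of cells in parentheses; a level of 0 (Il2 at 5-9 in the CD4 gate) is not drawn. Il2 and Csf2 in the CD8 gate are high only at 20 or more Ifng UMIs (2.79 and 1.04), and Fasl stays between 0.632 and 0.810.

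In the CD4 gate of anti-PD-1 the concentration was stronger. There 29 of 947 cells had 20 or more Ifng UMIs and held 66.8% of the gate's Ifng. Csf2 was 22.5 in them against 1.02 in CD4-gated cells without Ifng, Il2 5.90 against 0.188, Ccl3 36.2 against 0.473 and Tnf 2.33 against 0.349. Fasl was 0.561 against 0.361, the smallest of these differences. How many of the 29 cells had each gene was not counted, and in the whole gate 1 cell held 282 of the 1572 Csf2 UMIs. These bins were formed by Ifng itself in 1 library, so the values are a description.

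In a sum over all cells, which mixes the gates, Tnf was lower in cells with an Mki67 UMI in all 4 libraries, and Ifng in 2, of which the interval for anti-PD-1 includes 0. There Tnf was 0.391 in Mki67-bearing against 0.835 in Mki67-free cells of the combination, 0.208 against 0.272 in anti-PD-1, 0.394 against 0.673 in ATT-I and 0.355 against 0.633 in vehicle. The log2 ratios were -1.09, -0.39, -0.77 and -0.83, lower in 4 of 4 libraries. For Ifng they were -0.82, -0.02, 0.23 and 0.45. In the CD8 gate of anti-PD-1, Ifng was 3.35 in Mki67-bearing against 3.29 in Mki67-free cells, Tnf 0.157 against 0.220, Csf2 0.108 against 0.159 and Fasl 0.637 against 0.896. Tnf in the CD8 gate was also lower in ATT-I, 0.315 against 0.554, but not in the combination, 0.405 against 0.352 in 11 Mki67-free cells, or in vehicle, 0.404 against 0.137 in 5. Mki67 was found in 90.7% of CD8-gated cells of the combination, 34.8% of those of anti-PD-1, 39.3% of those of ATT-I and 89.6% of those of vehicle. Cells without it were shallower, with a median of 6836 UMIs against 11471 in the CD8 gate of anti-PD-1, and an unseen Mki67 does not show a resting cell.

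Genes triggered by the T cell receptor were partly higher in the combination than in anti-PD-1. In CD8-gated cells 4 of 11 were at least 2-fold higher and 0 lower (median log2 0.09, as for all genes), against the 11.4% of all genes. Nr4a3 and Nr4a1, nuclear receptors that appear within hours of receptor triggering, were 0.899 in the combination against 0.137 in anti-PD-1 (log2 ratio 2.71, 2.53 to 2.89) and 1.18 against 0.197 (2.59, 2.43 to 2.74). Xcl1, a chemokine for cross-presenting dendritic cells, had a ratio of 1.47, and Nr4a2 one of 1.07. Of 14 factors that induce these cytokines, Irf4 (1.95), Bhlhe40 (1.08) and Stat4 (1.02) were higher and 0 lower. Of 8 regulators of cytokine mRNA decay, Rc3h1 (1.12) and Rc3h2 (1.05), which encode the Roquin proteins, were higher.

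Among other cytokines, 7 of the 14 listed were in the table. In CD8-gated cells of the combination against anti-PD-1, 5 of these passed the filter. Lta, which encodes lymphotoxin alpha, was higher at 0.260 against 0.122 (1.09), and Il2 lower at 0.0411 against 0.120 (-1.55, on 15 combination UMIs). In anti-PD-1, Il2 was 2.79 in the 135 CD8-gated cells with 20 or more Ifng UMIs. It lay between 0.0235 and 0.0796 in the lower ranges of Ifng. The part of those 135 cells in the Il2 ratio was not tested. Of 15 measured receptor and signalling genes 14 passed, where 11.4% of all genes were higher and 7.44% lower; Jak2, a kinase of the interferon-gamma and GM-CSF receptors, was higher (1.19), and Tnfrsf1a, a receptor of Tnf, lower (-1.13), as was Csf2ra, a chain of the GM-CSF receptor, on 5 combination UMIs (-1.15, -2.78 to 0.09). Of 19 interferon-gamma response genes, Cd274, which encodes PD-L1, was higher (1.08), Ciita, the activator of MHC class II genes, lower on 1 combination UMI (-3.07, -8.38 to -0.57), and 17 neither. Over all 9 comparisons, 18 or 19 genes of that list passed the filter, with 0 or 1 higher and 0 to 2 lower in each; of all genes, 3.23% to 11.4% were higher and 5.59% to 19.2% lower.

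In CD4-gated cells of anti-PD-1 against vehicle, where Ifng was higher, 4 of 11 receptor-triggered genes were at least 2-fold higher and 2 lower (median -0.27, as against -0.28 for all genes), beside 6.22% of all genes higher and 19.2% lower. Ccl4 was 6.18 in anti-PD-1 against 0.217 in vehicle (log2 ratio 4.83, 4.06 to 5.74), and Ccl3 3.55 against 0.167 (4.41, 3.53 to 5.48). In the 29 anti-PD-1 cells with 20 or more Ifng UMIs, Ccl4 was 56.0 and Ccl3 36.2. In those without Ifng they were 1.52 and 0.473. Cd8a and Cd8b1 summed to 0.690 in this gate of anti-PD-1 and 0.200 in vehicle, and the 7 NK markers to 1.81 and 0.200. The part of such cells in the ratios of this gate was not tested. Tnfrsf9, which encodes the co-stimulatory receptor 4-1BB, was 5.14 against 1.38 (1.89), and Xcl1 2.38 against 0.784 (1.60). Il2 was 0.423 against 0.100 (2.08, on 6 vehicle UMIs), with 5.90 in those 29 anti-PD-1 cells and 0.188 in those without Ifng. Il10, an inhibitory cytokine, had 167 UMIs in anti-PD-1 and 0 in vehicle, and the lower 95% limit of its log2 ratio was 2.02. Egr2 and Egr3 were lower, as were 3 of 8 decay regulators, Rc3h2 (-1.80), Rc3h1 (-1.28) and Zc3h12d (-1.16). In the same gate ATT-I also had more Ccl4 than vehicle, 2.39 against 0.217 (3.46), and more Ccl3, 0.669 against 0.167 (2.004), without a difference of 2-fold in Ifng.

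Across the 8296 CD8-gated cells of anti-PD-1, which share a library and differ in depth, Pearson's r of the log levels was computed with 9745 genes. The genes most like Ifng were Ccl4 (r = 0.33), Rgs16, a regulator of G protein signalling (0.30), Ccl3 (0.28), Prf1 (0.28) and S100a4 (0.25). For Csf2 they were Ccl1 (0.24), Cd83, Tnfsf11, Ccdc184 and Il2. No gene was above 0.11 for Tnf or above 0.16 for Fasl, and such values in sparse counts are no finding. Among the members themselves r lay between -0.02 and 0.09.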

How the data were processed

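Cells of 4 tumour libraries, 1 an arm, were read from 1 table of 13518 genes and 13213 cells. Cell Ranger, Seurat and mm10 are named in the submitters' processing notes, without versions or parameters. The authors deposited natural log values. These fit ln(1 + x), with x the cell's UMIs of a gene per 10000, minus 1 constant a library (0.225 combination, 0.249 anti-PD-1, 0.153 ATT-I, 0.247 vehicle) whose reason is not given in the sources used here, with negatives set to 0. Undoing this gave whole UMIs (tolerance 0.02) for 100% of non-zero values. The constant sets genes with 1 UMI to 0 in 37, 37, 0 and 21 deep cells of the combination, anti-PD-1, ATT-I and vehicle, which were kept. Libraries held 5232593, 108628721, 2878355 and 3099824 UMIs in that order. No filter on cells and no doublet caller was applied, and no batch is given in the labels.

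Levels are summed UMIs per 10000 with exact Poisson intervals, ratios have exact conditional binomial intervals, and shares exact Clopper-Pearson intervals (95%). Shares were also taken after thinning each cell to 4000 UMIs (seeded draw). Gates were compared over libraries by an exact sign-flip test, with Benjamini-Hochberg adjustment. A gate with 0 UMIs takes a floor of 3 UMIs in that library, and gates compared need 20 cells; in ATT-I this floor lies above the CD8 level of Csf2, so the Foxp3 and CD8 gates were compared for it in 3 libraries. The ratio calculation was tested on simulated data. Named genes of each list are up to 4 with the largest ratio past 2-fold and at least 50 UMIs; genes most like a member are the 5 with the highest r; Csf2ra, Ciita, Egr2 and Egr3 were named after their values were seen, as were the contrasts by anti-PD-1. The members and lists were chosen with earlier results of these data known. Python 3.11.15, numpy 2.4.6, scipy 1.17.1 and matplotlib 3.10.9 were used.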

Additional observations from a re-analysis of the deposited data

Results flagged for a closer look

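The log2 ratio of Ifng in the CD4 over the CD8 gate had opposite signs in libraries with and without anti-PD-1: 0.553 in the combination and 0.681 in anti-PD-1, against -0.815 in ATT-I and -0.967 in vehicle. The split by anti-PD-1 was looked at after the values were seen, and its exact two-sided permutation p of 0.333 is the smallest that 2 libraries against 2 can give. Taken as a mean over cells, the ratios were 0.198, 0.622, -0.280 and -0.568. With strict gates, which allow no UMI of the other coreceptor, they were 0.612, 0.639, -0.705 and -0.929. Without the top cell of each gate they were 0.0643, 0.541, -0.631 and -1.16. All of these are ratios of levels. The thinned share of cells with Ifng in anti-PD-1 was lower in the CD4 gate, 38.6% against 47.7% in the CD8 gate.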

How the results depend on the processing

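Arms could not be compared over paired samples because each arm is 1 library. Gates were paired within libraries. Main counts of members at least 2-fold apart moved as follows. Over all cells, combination against anti-PD-1 had 1, but 3 at 1.5-fold, 2 without cells whose 1-UMI genes are at 0 and 3 in cells without Mki67. Combination against ATT-I had 0, but 1 at 1.5-fold, 1 by a mean over cells, 1 without cells whose 1-UMI genes are at 0 and 3 without Mki67. Anti-PD-1 against vehicle had 2, but 1 without the top cell, 1 less the median of all genes, and 3 each at 1.5-fold, by a mean over cells and without cells whose 1-UMI genes are at 0. Combination against vehicle had 0, but 1 at 1.5-fold and 3 without Mki67. In the CD8 gate, combination against anti-PD-1 had 1, but 3 at 1.5-fold, 2 each by a mean over cells, with strict gates, without cells whose 1-UMI genes are at 0 and in cells with Mki67, and 0 less the median. Combination against ATT-I had 1, but 0 with a filter of 10% of cells and 0 with strict gates. In the CD4 gate, anti-PD-1 against vehicle had 1, but 2 at 1.5-fold, 2 by a mean over cells and 3 without Mki67. For Ifng in CD8-gated cells, combination against anti-PD-1 was -0.42 by a mean over cells and -0.87 with Mki67 (main -0.66), and against ATT-I 0.47 and -0.16 (main 0.14). Csf2 in CD8-gated cells, combination against ATT-I, turned to -1.19 with Mki67. Fasl in the CD4 over the CD8 gate averaged -0.85 by a mean over cells and -0.88 without the top cell. Joint detection of Csf2 with Fasl in CD8-gated cells of anti-PD-1 was 1.22 when thinned to 2500 UMIs. Causes were not tested. Of the alternative values of ratios between libraries, 177 stayed within the main interval, 78 moved out of it and 1 turned round. Of those of thinned shares, 114 stayed and 78 moved. A further 69 counts and 34 gate means stayed close to the main value. Few cells outside anti-PD-1 limit every comparison, and libraries cannot be told apart from treatments.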
